A study of Mus musculus with 10 samples.

Results

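Transferrin (Trf), ceruloplasmin (Cp) and 8 further genes of iron and copper handling were followed in brown adipose tissue (BAT) with and without adipocyte STAT5. Trf and Cp were selected on the fall of their counts in this comparison, and the other 8 are genes of the same functions, listed beside them with results of these data already known: Tfrc, Slc40a1, Slc11a2, Fth1, Ftl1, Heph, Ireb2 and Atp7a. All 10 were found among the 24454 genes of the count files, and all 10 were among the 13568 genes that passed the filter on low counts. The study deleted Stat5a and Stat5b in adipocytes to ask what STAT5 does in BAT, and sequenced RNA of 5 control and 5 Stat5Adipoq mice, 1 library per mouse. All mice were 2-month-old males on a C57BL/6N background, fed ad libitum and in the basal state. According to the methods, both groups carried floxed Stat5 alleles and the Stat5Adipoq mice also carried Adipoq-Cre, which is active in adipocytes, so other cells of the tissue keep STAT5. The controls were littermates without Cre, which the sample labels call wild type. Because whole tissue was sequenced, fewer cells of a type and less RNA per cell cannot be told apart in any value given here.

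Cells take up iron mainly as iron-loaded transferrin, the iron carrier of plasma, which binds the transferrin receptor at the cell surface and is internalised. Inside the endosome iron is reduced by STEAP enzymes and leaves through the transporter DMT1 (Slc11a2), after which it is used in haem and iron-sulphur clusters, stored in ferritin (Fth1 and Ftl1) or exported by ferroportin (Slc40a1). Ceruloplasmin and hephaestin (Heph) are copper enzymes that oxidise exported iron so that transferrin can bind it, and the copper pump Atp7a loads such enzymes with copper. Brown adipocytes are rich in mitochondria and thereby in iron proteins. Iron-regulatory proteins, one of which is IRP2 (Ireb2), bind hairpins called iron-responsive elements when iron is low. Bound to the 3′ untranslated region of Tfrc mRNA they protect it from decay, and bound to the 5′ untranslated region of ferritin or ferroportin mRNA they block its translation, which mRNA counts do not measure.

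The transcripts of the GENCODE M21 annotation were searched on the mRNA strand for the hairpin pattern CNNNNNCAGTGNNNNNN, in which the 5 bases before the CAGTGN loop had to pair with the 5 bases after it and at least 3 of the 6 positions below the bulged C had to pair. The sites are shown because they separate the members into those with and those without a match to this pattern. A hairpin with an unpaired base in those 5 pairs would not be matched, so a missing match does not show that an element is absent. In the lines below, capitals mark the bulged C and the loop, and positions are on GRCm38. Tfrc held 4 sites in its 3′ untranslated region on the plus strand, at chr16:32631219-32631247, chr16:32631598-32631626, chr16:32631663-32631691 and chr16:32631710-32631738.
Tfrc site 1: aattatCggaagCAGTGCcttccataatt
Tfrc site 2: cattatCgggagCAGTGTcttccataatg
Tfrc site 3: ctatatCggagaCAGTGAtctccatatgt
Tfrc site 4: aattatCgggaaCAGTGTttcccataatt
In the 5′ untranslated region, 1 site each was found in Fth1 (plus strand, chr19:9982732-9982760), Ftl1 (minus strand, chr7:45459779-45459807) and Slc40a1 (minus strand, chr1:45925465-45925493).
Fth1: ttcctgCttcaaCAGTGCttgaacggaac
Ftl1: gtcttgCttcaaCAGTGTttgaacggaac
Slc40a1: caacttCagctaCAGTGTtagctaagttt
The other 6 members held no match to these letters in either untranslated region. Among all protein-coding genes, the pattern was present in 10 of 20937 genes with a 5′ untranslated region (0.0478%) and in 47 of 21074 genes with a 3′ untranslated region (0.223%).

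The depth on genes was 8488129 to 19514904 counts per library in control and 9401827 to 15686868 in Stat5Adipoq. Values are CPM, counts scaled to the library's total with TMM factors, and the test between genotypes was the quasi-likelihood F test of edgeR, with p adjusted by Benjamini-Hochberg over the 13568 genes. A gene is said to be called where this adjusted p was below 0.05, as for 368 genes. Positions are those of GENCODE M21 on GRCm38. Stat5a was 86.9 to 130.4 CPM in control and 15.8 to 20.7 CPM in Stat5Adipoq libraries, and Stat5b was 76.6 to 91.9 CPM and 21.0 to 22.9 CPM, so all libraries matched their labels. Of 10 brown adipocyte markers, including Ucp1, Cidea and Adipoq, none was called, and their summed level was 19021 to 30371 CPM in control and 20789 to 26468 CPM in Stat5Adipoq BAT. Control replicate 3 stood apart, with 3677 CPM of 9 skeletal muscle markers against 2.44 to 294.7 CPM in the other libraries and 135 CPM of 13 hepatocyte markers against 2.0 to 9.62 CPM in the others, a sum that leaves out Cyp2e1. Control replicate 4 was the deepest library and had the highest sum of Schwann cell markers.

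Transferrin mRNA was the member with the widest gap between the genotypes. Trf (chromosome 9, 103204001 to 103230444, minus strand) was 309, 193, 277, 216 and 193 CPM in control replicates 1 to 5 and 114, 42.4, 67.9, 61.5 and 37.1 CPM in Stat5Adipoq replicates 1 to 5. Every Stat5Adipoq library lay below every control, and Stat5Adipoq replicate 1 lay closest to them. The means were 237 ± 52.9 CPM and 64.5 ± 30.4 CPM (SD, n = 5), which is a log2 fold change of -1.88 (SE 0.27), or 3.68-fold lower. Since Trf was chosen for this difference, it is a description without a test, as is the background that 2.04% of all tested genes were lower without overlap. The log2 fold change lay between -2.19 and -1.73 when single libraries were left out.

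Ceruloplasmin, the ferroxidase that carries most copper in plasma, was the other member picked for its fall. Cp (chromosome 3, 19957054 to 20009145, plus strand) was 66.2, 52.1, 61.8, 83.5 and 73.5 CPM in control replicates 1 to 5 and 32.0, 28.9, 24.7, 28.8 and 24.7 CPM in Stat5Adipoq replicates 1 to 5. The genotypes did not overlap, and the Stat5Adipoq libraries were closer to each other than the controls were. The means were 67.4 ± 11.9 CPM and 27.8 ± 3.12 CPM (SD, n = 5), which is a log2 fold change of -1.28 (SE 0.12), or 2.43-fold lower, again without a test. Trf varied far more than Cp inside the Stat5Adipoq group, with coefficients of variation of 47.1% and 11.2%, where the median over all tested genes was 11.3%.

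Other genes share sequence with Trf. Gm20425, an annotated read-through model, joins the neighbouring gene Srprb to Trf. Its exons overlap with 63.5% of Trf's exonic sequence, and 79.8% of the 50-base words of the Trf transcript occur in Gm20425 and in no other gene. The count files have no line under that name, and whether reads in these exons were assigned in full is not stated. Srprb, which encodes a subunit of the signal recognition particle receptor, was 45.9 ± 2.86 CPM in control and 45.4 ± 4.25 CPM in Stat5Adipoq BAT (SD, n = 5). Its log2 fold change was -0.01 (95% limits -0.17 and 0.14). For Cp, 1.13% of the exonic sequence lies opposite to exons of Hps3, and Hps3 had a log2 fold change of -0.05 (95% limits -0.29 and 0.20). No 50-base word of Cp or Tfrc occurs in another gene.

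Tfrc, the receptor that binds transferrin, went the opposite way and was the one gene called among the other 8 members. Tfrc (chromosome 16, 32608920 to 32632794, plus strand) was 72.6, 111, 80.8, 54.9 and 76.7 CPM in control replicates 1 to 5 and 243, 151, 224, 151 and 122 CPM in Stat5Adipoq replicates 1 to 5. All Stat5Adipoq libraries lay above all controls, although Stat5Adipoq replicate 5 and control replicate 2 were close. Tfrc rose from 79.1 ± 20.2 CPM to 178 ± 52.3 CPM (SD, n = 5), which is a log2 fold change of 1.18 (SE 0.21; edgeR-adjusted p = 0.011), or 2.26-fold (95% limits 1.65 and 3.09). The exact two-sided permutation test gave p = 0.0079, the smallest that 5 libraries against 5 allow. Tfrc was called in all 20 other fits, including those without control replicate 3, and its adjusted p was between 0.0002 and 0.041 there by edgeR, DESeq2 and limma. Among all tested genes, 2.71% were called in either direction and 1.4% were called higher.

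**Figure D1:**
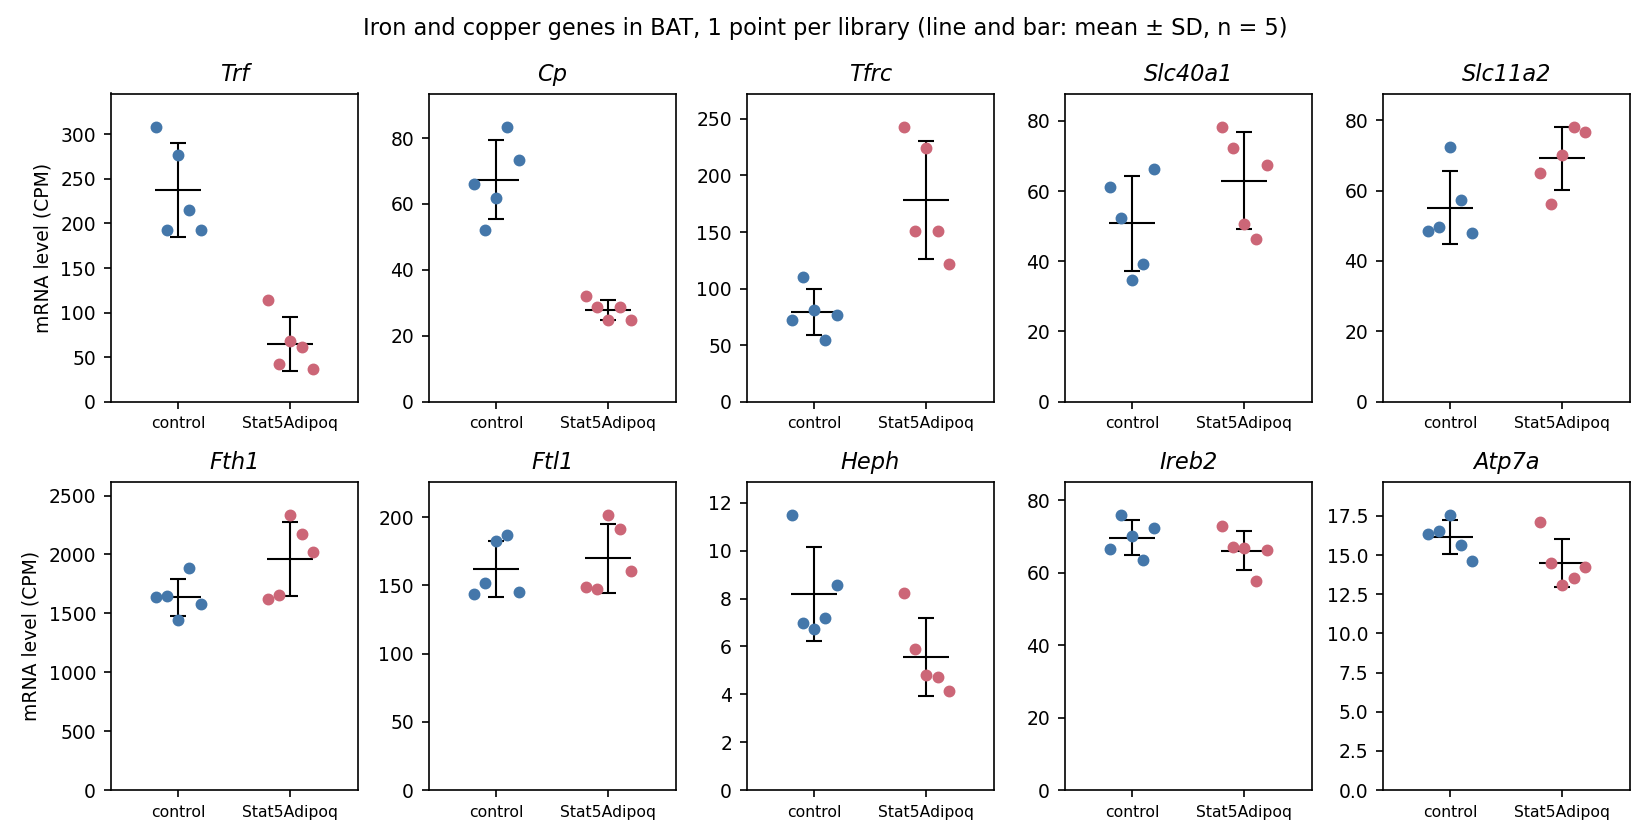
mRNA level in CPM (y axes, each from 0) of the 10 members in the 5 control and 5 Stat5Adipoq libraries, 1 point per library, with the mean and SD as line and bar. Trf and Cp lie lower and Tfrc lies higher in all Stat5Adipoq libraries, whereas the points of the other 7 members overlap between the genotypes.

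Per length of transcript, the counted level of Trf lay above that of Tfrc in control and below it in Stat5Adipoq libraries. Trf was 92.3 ± 20.6 CPM per kb and Tfrc 16.2 ± 4.12 CPM per kb in control (SD, n = 5), and the ratio of Trf to Tfrc inside a library was between 3.31 and 8.09. In Stat5Adipoq BAT they were 25.1 ± 11.8 and 36.5 ± 10.7 CPM per kb, and the ratio was between 0.534 and 0.890. Within the Stat5Adipoq group the values did not run opposite to each other, since replicate 1 had the highest level of both genes. The ratio involves Trf and is likewise given without a test. It also rests on the count of Trf as deposited, and if reads shared with Gm20425 were left out of that count, the ratios would be higher in both genotypes and the order in Stat5Adipoq BAT could differ.

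**Figure D2:**
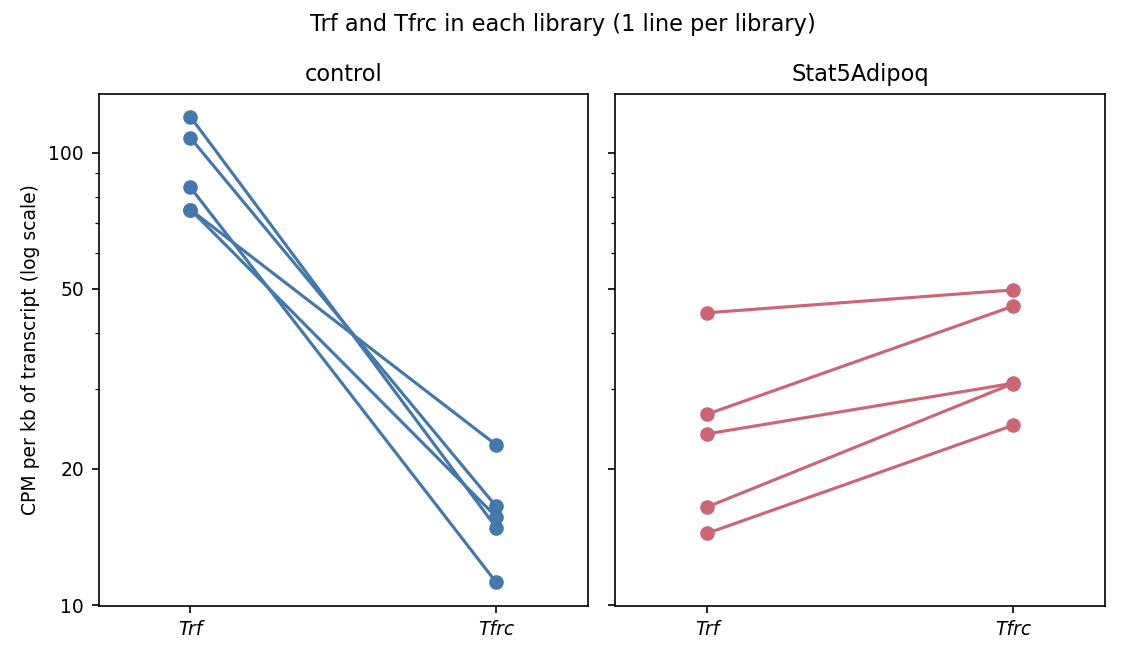
Level of Trf and Tfrc mRNA in CPM per kb of transcript (y axis, log scale), with 1 line joining the 2 genes of each library, for 5 control and 5 Stat5Adipoq libraries. Lines fall from Trf to Tfrc in every control library and rise in every Stat5Adipoq library.

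The transporters of iron across membranes were higher on average in Stat5Adipoq BAT but were not called. Slc11a2, which releases iron from endosomes (chromosome 15, 100387898 to 100425072, minus strand), was 48.4, 49.7, 72.3, 57.4 and 47.9 CPM in control replicates 1 to 5 and 65.0, 56.2, 70.2, 78.2 and 76.5 CPM in Stat5Adipoq replicates 1 to 5. The groups overlapped, since control replicate 3 exceeded Stat5Adipoq replicates 1, 2 and 3, and control replicate 4 exceeded Stat5Adipoq replicate 2. The log2 fold change was 0.33 (SE 0.12; edgeR-adjusted p = 0.22). Without control replicate 3, the library with the most muscle and hepatocyte marker mRNA, it was 0.44 and Slc11a2 was called (edgeR-adjusted p = 0.032), and over all alternatives the adjusted p ranged from 0.023 to 0.40. Slc40a1, the known exporter of cellular iron (chromosome 1, 45908068 to 45926523, minus strand), was 34.8 to 66.4 CPM in control and 46.3 to 78.4 CPM in Stat5Adipoq libraries, which overlapped widely. Its log2 fold change was 0.31 (95% limits -0.10 and 0.73; edgeR-adjusted p = 0.48), and it was 0.08 without control replicates 3 and 4, the controls with the least Slc40a1.

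Ferritin subunits, which form the shell that stores iron, were the most abundant members per length of transcript, by the counts as deposited. Fth1 (chromosome 19, 9980598 to 9985098, plus strand) was 1635, 1643, 1439.9, 1881 and 1581 CPM in control replicates 1 to 5 and 1626, 1656, 2334.5, 2175 and 2022 CPM in Stat5Adipoq replicates 1 to 5. Stat5Adipoq replicates 1 and 2 were at the level of the controls and the other 3 were above all of them. The log2 fold change was 0.26 (95% limits 0.03 and 0.49; edgeR-adjusted p = 0.26). Ftl1 (chromosome 7, 45457944 to 45459884, minus strand) was 144 to 187 CPM in control and 147 to 201 CPM in Stat5Adipoq libraries, with a log2 fold change of 0.07 (95% limits -0.17 and 0.30; edgeR-adjusted p = 0.85). Its count is uncertain, because 78.9% of the 50-base words of its transcript occur in other genes, 15 in all, among them Ftl1-ps1, Ftl1-ps2 and Ftl2-ps. For Fth1 this share was 4.01%.

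Of the copper enzymes and pumps, hephaestin was lower on average. Heph, the membrane-bound relative of ceruloplasmin (chromosome X, 96455359 to 96574485, plus strand), was 11.5, 6.99, 6.73, 7.18 and 8.59 CPM in control replicates 1 to 5 and 8.22, 5.90, 4.8, 4.74 and 4.15 CPM in Stat5Adipoq replicates 1 to 5. The groups overlapped through Stat5Adipoq replicate 1 alone, which had more Heph than control replicates 2, 3 and 4. The log2 fold change was -0.55 (95% limits -0.99 and -0.11; edgeR-adjusted p = 0.21), at 82.6 counts per library on average. Atp7a, the copper pump of the secretory pathway (chromosome X, 106027276 to 106124926, plus strand), was 14.6 to 17.6 CPM in control and 13.1 to 17.1 CPM in Stat5Adipoq libraries, with a log2 fold change of -0.15 (95% limits -0.35 and 0.04; edgeR-adjusted p = 0.47). Ireb2, which encodes IRP2 (chromosome 9, 54863789 to 54912530, plus strand), was 63.5 to 76.0 CPM in control and 57.7 to 72.9 CPM in Stat5Adipoq libraries, with a log2 fold change of -0.07 (95% limits -0.23 and 0.08; edgeR-adjusted p = 0.70).

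Of the 8 members other than Trf and Cp, 1 was called higher and none lower, beside 1.31% of all tested genes called lower, and 5 had a fold change above 0. In 1 of the 8 the libraries of the genotypes did not overlap, where this held for 4.39% of all tested genes. Their median log2 fold change was 0.16, and the median over all tested genes was -0.0028. An unadjusted p below 0.05 was found for 4 of the 8 (Tfrc, Slc11a2, Fth1 and Heph), and for 2064 of the 13568 tested genes. The Wald test of DESeq2 called 4.86% of all tested genes and, of the 8, Tfrc alone.

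Levels can be ordered per length of transcript. In control BAT the order was Fth1 (1095 CPM per kb), Ftl1 (167), Trf (92.3), Tfrc (16.2), Slc40a1 (15.1), Cp (14.8), Slc11a2 (12.5), Ireb2 (12.1), Atp7a (3.29) and Heph (1.73). From Tfrc to Ireb2 each gene overlapped with the next one over the 5 libraries, so their order is not resolved, whereas the other neighbours were separate. The places of Ftl1 and Trf rest on the counts as deposited. Of their 50-base words, 78.9% and 79.8% occur in other genes, so these 2 levels are uncertain. In Stat5Adipoq BAT Tfrc was the third at 36.5 CPM per kb, and Cp was the eighth at 6.09 CPM per kb. There Tfrc overlapped with Trf, Trf with Slc40a1, and Slc40a1 with Slc11a2, and Cp was separate from both its neighbours, Ireb2 and Atp7a.

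**Figure D3:**
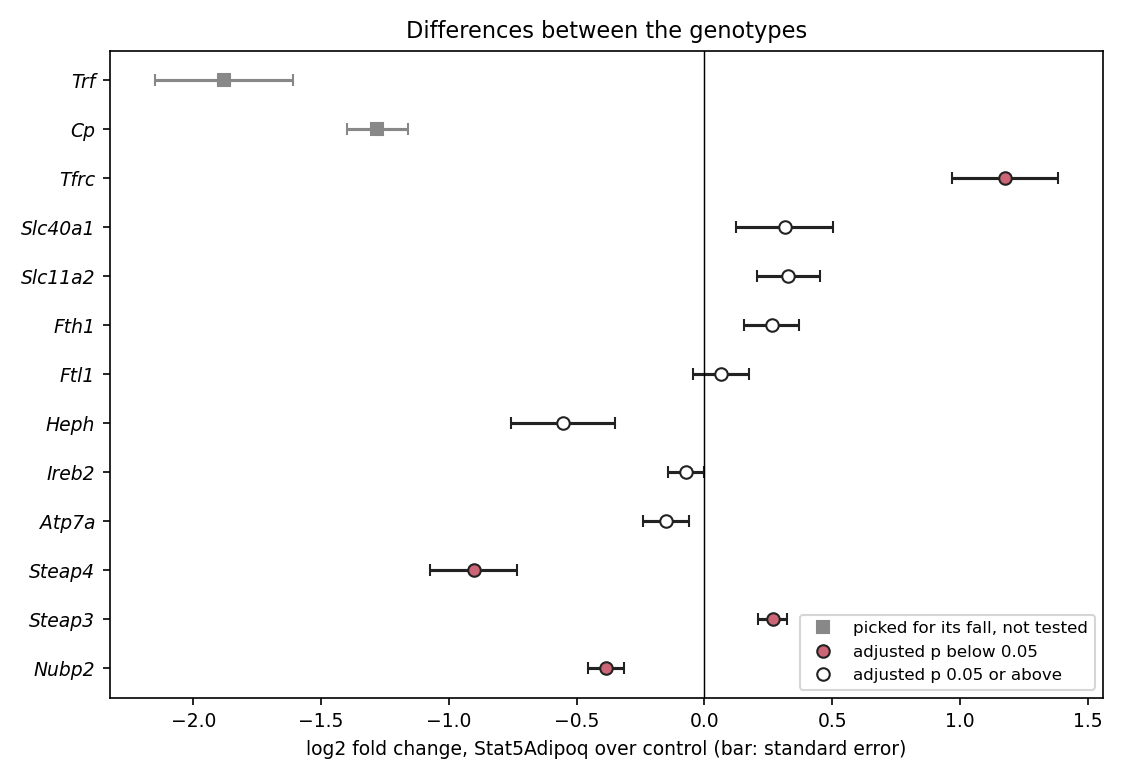
Log2 fold change of Stat5Adipoq over control BAT (x axis) with its standard error for the 10 members and for Steap4, Steap3 and Nubp2, the 3 other iron and copper genes that were called. Grey squares are the 2 genes picked for their fall, filled circles have an adjusted p below 0.05, and Tfrc at 1.18 is the largest rise shown.

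A wider set of 103 iron and copper genes in 6 lists was then examined, of which 97 were tested. In all 3 were called, 2 lower and 1 higher, which is 3.09% of the 97 beside 2.71% of all tested genes. At the adjusted threshold the set was thus called about as often as genes in general, and its median log2 fold change was -0.01. Fold changes were above 0 in 44 and below 0 in 53 genes. An unadjusted p below 0.05 was found for 22 of the 97, and for 2064 of the 13568 tested genes, which is a smaller share. The genes left out by the filter were Cybrd1, Ftmt, Hamp, Hamp2, Atp7b and Sco2, with at most 8 counts in any library. Hepcidin (Hamp), the liver hormone that triggers the breakdown of ferroportin, is among these.

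Of the 13 tested genes for cellular iron uptake and release from endosomes, 2 were called, beside 2.71% of all tested genes. Both encode STEAP metalloreductases, but they went in opposite directions. Steap1 and Steap2, on the same list at 0.72 and 0.63 CPM on average, were not called (edgeR-adjusted p = 0.94 and 0.37). Steap4, which reduces iron and copper and is abundant in adipose tissue (chromosome 5, 7960457 to 7982213, plus strand), was 155, 161, 109, 221 and 203 CPM in control replicates 1 to 5 and 107, 99.1, 97.3, 75.5 and 75.9 CPM in Stat5Adipoq replicates 1 to 5. The genotypes did not overlap, though control replicate 3 was only just above Stat5Adipoq replicate 1. Steap4 fell from 170 ± 43.9 CPM to 90.9 ± 14.3 CPM (SD, n = 5), which is a log2 fold change of -0.90 (SE 0.17; edgeR-adjusted p = 0.015). The edgeR-adjusted p was 0.050 both without Stat5Adipoq replicate 4 and without Stat5Adipoq replicate 5, just above the threshold, with log2 fold changes of -0.84.

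Steap3, the ferrireductase of the transferrin endosome (chromosome 1, 120190757 to 120272705, minus strand), was 25.4 to 28.5 CPM in control and 31.2 to 33.5 CPM in Stat5Adipoq libraries and did not overlap. Steap3 rose by a log2 fold change of 0.27 (SE 0.05; edgeR-adjusted p = 0.026). With single libraries left out this call was kept in 2 of 10 cases, without control replicate 3 or without control replicate 4, while the log2 fold change stayed between 0.25 and 0.29 in the 10. Over all 20 other fits Steap3 was called in 9, and it was not called with library size as the only scaling (edgeR-adjusted p = 0.057). Among the other uptake genes, Mcoln1, an iron channel of lysosomes, was 39.8 CPM in both genotypes (95% limits of the log2 fold change -0.14 and 0.13). Slc39a14, which transports iron not bound to transferrin, had a log2 fold change of -0.42 (edgeR-adjusted p = 0.20).

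In the list of mitochondrial iron and iron-sulphur cluster genes, 1 of 24 was called, beside 2.71% of all tested genes. Nubp2, a scaffold for iron-sulphur clusters in the cytosol (chromosome 17, 24882611 to 24886349, minus strand), was 33.2 to 41.0 CPM in control and 25.7 to 30.5 CPM in Stat5Adipoq libraries, and fell by 0.38 on the log2 scale (SE 0.07; edgeR-adjusted p = 0.014). It was called in 19 of 20 other fits. The most abundant genes of the list did not pass the test: Hspa9, the mitochondrial chaperone of cluster assembly, had a log2 fold change of 0.01 (limits -0.17 and 0.19) and Abcb8, a transporter of the inner membrane, one of -0.05. The median of the list was 0.0017.

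None of the 22 tested genes for haem synthesis, breakdown and transport was called, beside 2.71% of all tested genes. An unadjusted p below 0.05 was found for 5 of them, beside 2064 of the 13568 tested genes. The list was led by Hp, haptoglobin, which binds free haemoglobin, at 801 ± 142 CPM in control and 915 ± 96.0 CPM in Stat5Adipoq BAT (SD, n = 5), and by Lrp1, a receptor that takes up haem-hemopexin, with log2 fold changes of 0.19 and 0.09. In the list for storage, iron chaperones and iron sensing, none of 6 was called, beside 2.71% of all tested genes. None of the 6 had an unadjusted p below 0.05. Aco1, which acts as IRP1 when it lacks its cluster, had a log2 fold change of -0.15 and Pcbp2, an iron chaperone, one of -0.08. None of the 22 copper genes was called, beside the same 2.71%, and 6 had an unadjusted p below 0.05, beside the same 2064 of 13568. The most abundant were Aoc3, a copper amine oxidase of adipocytes, with a log2 fold change of 0.14, and Sod1, the copper-zinc superoxide dismutase, with one of -0.02 (limits -0.13 and 0.09).

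The hepcidin and ferroxidase list had 10 tested genes and no call, beside 2.71% called of all tested genes. An unadjusted p below 0.05 was found for 4 of the 10, beside 2064 of the 13568 tested genes. Its most abundant genes, the BMP receptors Bmpr2 and Bmpr1a, had log2 fold changes of 0.13 (edgeR-adjusted p = 0.25) and -0.21 (edgeR-adjusted p = 0.068). The libraries of the genotypes did not overlap for Bmpr1a, and it was called lower by the Wald test of DESeq2, with library size as the only scaling and without control replicate 5. Hfe2, hemojuvelin, had the lowest fold change of the 97 genes, -4.55 on the log2 scale, without passing the test (edgeR-adjusted p = 0.20). It reached 16.8 CPM in control replicate 3, while the median of the controls was 0.096 CPM. In Stat5Adipoq libraries the median was 0.160 CPM and the maximum 0.185 CPM. Skeletal muscle, which expresses Hfe2, had its markers at 3677 CPM in that control library. There 13 hepatocyte markers, without Cyp2e1, summed to 135 CPM. The source of the Hfe2 mRNA was not tested.

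**Figure D4:**
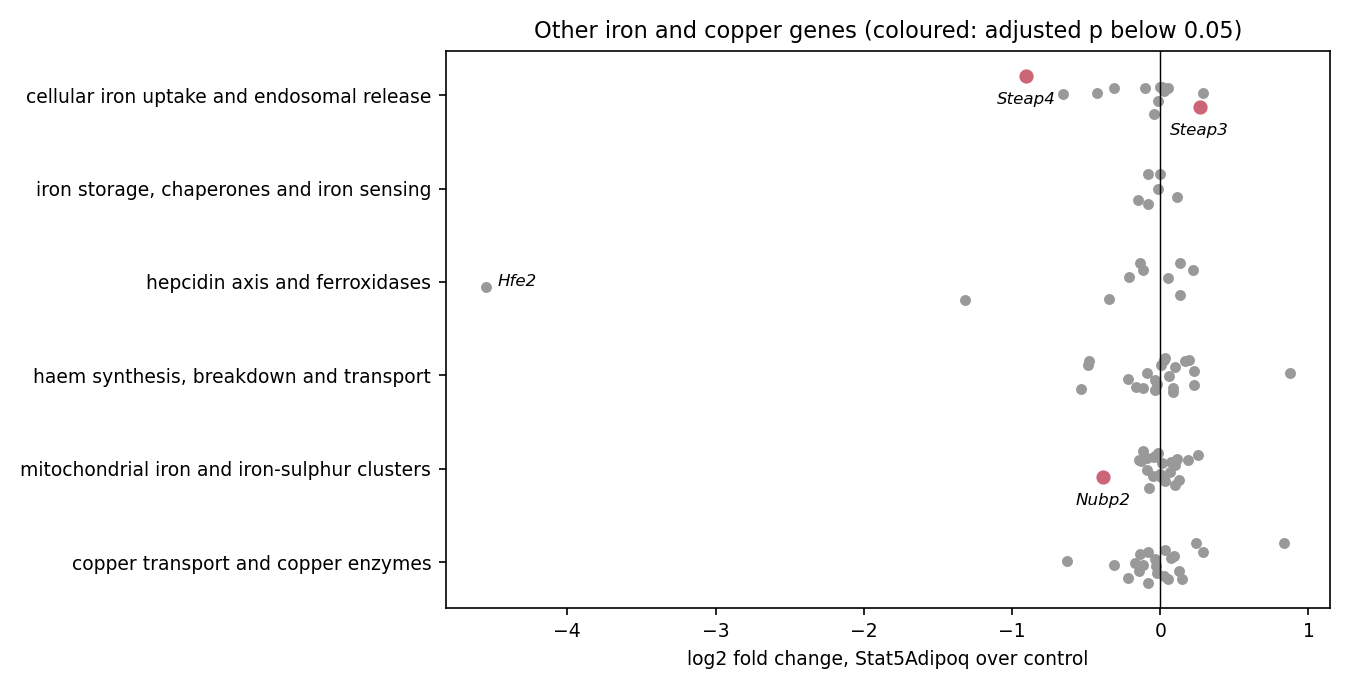
Log2 fold change of Stat5Adipoq over control BAT (x axis) for the 97 tested genes of 6 iron and copper lists (rows), 1 point per gene. Coloured points are the 3 called genes Steap4, Steap3 and Nubp2, most genes lie close to 0, and Hfe2 at -4.55 was not called.

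The hairpin pattern also selects genes outside the members. Of the 10 genes with it in the 5′ untranslated region 8 were tested and none was called, and their median log2 fold change was 0.10. Besides Fth1, Ftl1 and Slc40a1 these included Alas2, the erythroid enzyme of haem synthesis, with 9.67 ± 3.99 CPM in control and 17.5 ± 7.05 CPM in Stat5Adipoq BAT (SD, n = 5; log2 fold change 0.87, edgeR-adjusted p = 0.19). Of the 47 genes with it in the 3′ untranslated region 40 were tested and 2 were called, Tfrc higher and Lrpap1, a chaperone of LDL receptor family proteins, lower (log2 fold change -0.33), beside 2.71% called of all tested genes. The median log2 fold change over the 40 was -0.0069, and 19 of them had a fold change above 0.

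The core STAT5 consensus TTCNNNGAA, which reads the same on both strands, was searched in RefSeq promoter windows of GRCm38.p6 from 250 bases before to 50 bases after the start of a gene. It was found in none of 9 windows of 6 members (Cp, Tfrc, Fth1, Ftl1, Ireb2 and Atp7a), while 8.3% of all 32851 windows held it. Trf, Slc40a1, Slc11a2 and Heph had no window. This says only that these letters were not in these windows.

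Trf and Cp are also made by other cells, so markers of these were measured in the same libraries. Hepatocytes make both in abundance, and apart from Cyp2e1, which was called lower (log2 fold change -1.67), the 13 listed hepatocyte markers summed to between 2.88 and 5.27 CPM in the controls other than replicate 3 and to between 2.0 and 9.62 CPM in Stat5Adipoq libraries. In control replicate 3 Trf was 277 CPM, below control replicate 1 alone, at 309 CPM. Without control replicate 3 the log2 fold changes were -1.82 for Trf and -1.31 for Cp. With Cyp2e1, all 14 hepatocyte markers summed to 61.7 to 315 CPM in control and 31.6 to 86.0 CPM in Stat5Adipoq libraries. The sum without Cyp2e1 was formed after its values were seen. Of the 14 markers 13 were tested, and their median log2 fold change was -2.20 with all libraries. The 10 Schwann cell markers summed to 137 to 543 CPM in control and 124 to 234 CPM in Stat5Adipoq BAT. Control replicate 1, which had the most Trf, had the lowest sum of the controls. Control replicate 4, with the most Cp, had the highest. Stat5Adipoq replicate 1, with the most Trf and Cp of its group, had the highest sum of that group. No Schwann marker was called, but the median of their log2 fold changes was -1.30. Macrophages express Cp, Slc40a1 and Heph, and the sum of 10 macrophage markers was 174 to 230 CPM in control and 146 to 191 CPM in Stat5Adipoq libraries, with no marker called. None of the 8 endothelial or 7 fibroblast and progenitor markers was called either.
The summed level of the 5 mesothelial markers did separate the genotypes, with 5.76 to 10.7 CPM in control and 2.95 to 3.86 CPM in Stat5Adipoq libraries. Of the 5 markers Lrrn4 alone passed the filter, and it was called lower (log2 fold change -1.25). Msln, Upk3b, Wt1 and Krt19 were too low to be tested, so the sum does not show a difference in each of them. The part of the marker lists in the values of Trf and Cp was not tested. Red cell precursors carry much Tfrc, and of the 10 erythroid markers in the files none passed the filter. The 4 globin genes among them were listed at 0 in all libraries, and these are near-identical copies whose reads may not have been assigned. The sum of all was 0.303 to 1.18 CPM in control and 0.719 to 2.22 CPM in Stat5Adipoq libraries. Alas2, whose levels are given above, was not on this list, and the part of erythroid cells in the level of Tfrc was not tested.

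**Figure D5:**
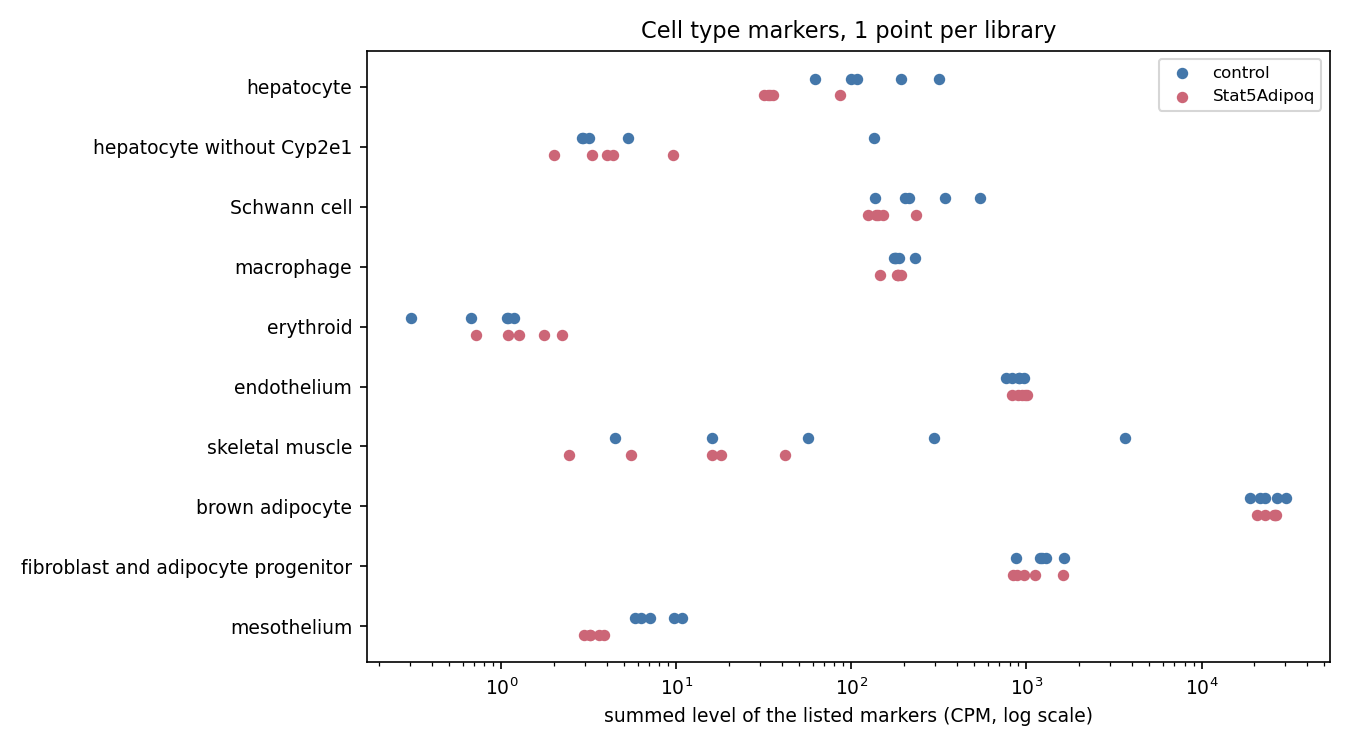
Summed level of cell type markers in CPM (x axis, log scale) for each list (rows), 1 point per library, with control in blue above and Stat5Adipoq in red below. Skeletal muscle and hepatocyte markers reach their highest sums in 1 control library, replicate 3, and the erythroid sums lie between 0.303 and 2.22 CPM, with the highest in a Stat5Adipoq library.

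The genes whose values over the 10 libraries were most like those of Trf, by the root mean square difference of mean-centred log2 CPM, were Retn (0.24), Slc25a10 (0.33), Cfd (0.36), Hoxc8 (0.39) and Slc7a10 (0.42). Retn and Cfd encode the adipocyte hormones resistin and adipsin, and Slc7a10 and Hoxc8 are known as genes with more expression in white than in brown fat. Retn was 86.0 CPM in control and 29.7 CPM in Stat5Adipoq BAT on average. For Cp the 5 most alike genes were Bhlhb9 (0.15), Gnai1 (0.23), Il18bp (0.26), Gulp1 (0.28) and Tcn2 (0.28), the last of which encodes the plasma carrier of cobalamin. No gene was among the 5 of both, and the difference between Trf and Cp themselves was 0.56, which put Cp at place 20 of the genes most like Trf. The measure takes in the difference between the genotypes, so these likenesses are descriptions.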

How the data were processed

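BAT RNA of 5 control and 5 Stat5Adipoq mice was sequenced, with single reads of 50 bases. The authors aligned reads to GRCm38 with STAR 2.5.0b and counted them over exons with featureCounts 1.5.0-p1. The strand setting is not given in the sources used here. The deposited values are counts per gene listed by Entrez identifier, not normalized. The authors' deposited comparison (fold changes and p-values from DESeq2 1.16.1) was used only for gene symbols, under which the 13568 tested genes are listed.

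Genes were kept where size-factor-normalized counts summed to above 45, as in the study. Genotypes were compared with edgeR 4.0.16 (TMM, quasi-likelihood F test, no covariate, adjusted p below 0.05). SEs are the fold change over the root of F. The code was tested on simulated counts. Members and lists were chosen with earlier results of these data known. Genes named beyond the members are those called in a wider list, the 2 most abundant per list, and the 5 most like Trf and Cp. Slc39a14, Steap1, Steap2, Alas2, Hfe2, Lrpap1, Lrrn4, Cyp2e1, Hamp and the neighbours Srprb, Hps3 and Gm20425 were named after their values were seen. Lengths, overlaps and hairpin sites are from GENCODE M21. Groups follow the sample titles. Depth was 8488129 to 19514904 counts, at which 6 listed genes had too few counts to be tested. No pair of libraries differed by sampling noise alone.

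The alternatives were DESeq2 1.42.0, its size factors, library size only, filterByExpr, all genes with at least 1 count, limma-voom 3.58.1, a replicate block, robust dispersion, and leaving out each library. Leaving out control replicates 3 and 4, or 3 and 5, was chosen after seeing the data.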

Additional observations from a re-analysis of the deposited data

Results flagged for a closer look

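Among 30 groups of 5 libraries examined for the members, Stat5a, Stat5b and the 3 called genes of the wider lists, 1 held a library far from the other 4, and about 1.5 such groups are expected by chance. Stat5a was 20.7 CPM in Stat5Adipoq replicate 1, against 15.8 to 16.6 CPM in the other Stat5Adipoq libraries. Among the 10 members, the same library had the highest level of its group for 7 (Trf, Cp, Tfrc, Slc40a1, Heph, Ireb2 and Atp7a) and the lowest for Fth1. How often it was the highest of its group among all tested genes was not determined, so this count is not particular to the members.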

How the results depend on the processing

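Of the 8 members other than Trf and Cp, 1 (Tfrc) was called in 18 of 20 other fits and 2 (Tfrc and Slc11a2) without control replicate 3 and without control replicates 3 and 4, so the count ranged from 1 to 2 when single libraries were left out. The wider lists had 1 to 3 calls with 1 library left out, 1 (Nubp2) without Stat5Adipoq replicate 4 or 5, and 1 (Steap4) without control replicates 3 and 5. DESeq2's Wald test called 660 of all genes against 368, and 185 to 442 were called with 1 library left out, with 221, 213 and 219 without control replicate 1, 2 and 4, and 185, 189 and 188 without Stat5Adipoq replicate 3, 4 and 5. The fold change of Ftl1 turned to -0.0038 on the log2 scale without Stat5Adipoq replicate 3 and was up to 0.12 with another single library left out. Replicate numbers are shared between the genotypes, but same-numbered libraries did not deviate together (correlations from -0.23 to 0.089), and 2 of the 5 controls correlated best with their own number. With a replicate block 273 genes, 1 of the 8 members and 2 of the wider genes (Flvcr1 and Nubp2) were called, while Steap4 was not (log2 fold change -0.87, edgeR-adjusted p = 0.066) and neither was Steap3 (0.27, edgeR-adjusted p = 0.068). Trf, Cp, Stat5a and Stat5b kept their direction in all 20, and Stat5a and Stat5b their calls. The causes were not tested. At this depth 6 of the 103 wider genes, with at most 8 counts in any library, were not tested.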
